A study of Mus musculus with 6 samples.

Results

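The genes described here are 6 members of the TALE class of homeobox genes: Meis1, Meis2 and Meis3, Pknox1, which encodes the protein PREP1, and Pbx2 and Pbx3. They were chosen by symbol in the annotation of the array, and every probe set assigned to 1 of them alone was kept. This gave 16 probe sets of the 34945 that named a single gene, and 6 genes of the 18193 measured. TALE proteins carry a homeodomain with a loop extended by extra residues. PBX proteins bind DNA together with HOX proteins and with MEIS or PREP proteins, and binding of MEIS or PREP brings PBX into the nucleus. In blood formation Meis1 is active in stem and early progenitor cells and is lost during myeloid maturation, and together with Hoxa9 it is a well-known driver of myeloid leukaemia in mice.

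RNA of mouse marrow cells was measured on 6 Affymetrix Mouse430_2 arrays, 2 for each of 3 groups. MN1 is a transcriptional cofactor that causes myeloid leukaemia in transplanted mice when overexpressed, and VP16 is the name of a viral transcriptional activator. The MN1 and MN1VP16 groups held GFP+ marrow cells carrying the retroviral vectors pSF91-MN1-IRES-GFP and pSF91-MN1VP16-IRES-GFP. Their C57BL/6J donors had received 5-fluorouracil (150 mg/kg, 4 days), and the marrow was kept for 48 hours with cytokines, transduced and given to lethally irradiated syngeneic recipients. GFP+ cells were sorted 4 weeks after transplantation. The Gr1Mac group held Gr1+/CD11b+ marrow cells, which are granulocytes and monocytes, and the labels carry the same donor, stimulation and transplantation text for Gr1Mac as for the other groups without saying whether these cells came from transplanted mice. No group of GFP+ cells with an empty vector was analysed here, so each difference from Gr1Mac is also a difference between a GFP sort and a sort for mature myeloid markers. The 2 Gr1Mac arrays came from different animals, as 1 was high in Xist and the other in Y-linked genes. For MN1 and MN1VP16 this is not stated, so the spread within those groups, which enters each p-value, may be technical. In bulk samples, fewer cells of a type and less RNA per cell cannot be told apart.

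The sequences upstream of the 3 members that passed the test in MN1 against Gr1Mac are shown because their promoters have different base compositions. They are the 250 bases before the annotated start in RefSeq (GRCm38.p6), written in the direction of the gene. Meis1 lies on the minus strand, and its stretch is chr11:19018970-19019219. Meis2 is also on the minus strand, at chr2:116064620-116064869. Pbx2 is on the plus strand, at chr17:34592009-34592258. Capitals mark matches, on either strand, to the letters CCGGAAG (the core of an ETS site), CCAAT (the CCAAT box) or GGGCGG (the GC box), 3 motifs picked after the sequences had been read.
Meis1: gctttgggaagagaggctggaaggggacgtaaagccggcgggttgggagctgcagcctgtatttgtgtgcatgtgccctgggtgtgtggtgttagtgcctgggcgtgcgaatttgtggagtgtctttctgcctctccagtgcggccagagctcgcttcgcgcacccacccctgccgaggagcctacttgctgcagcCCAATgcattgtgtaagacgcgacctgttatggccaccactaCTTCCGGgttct
Meis2: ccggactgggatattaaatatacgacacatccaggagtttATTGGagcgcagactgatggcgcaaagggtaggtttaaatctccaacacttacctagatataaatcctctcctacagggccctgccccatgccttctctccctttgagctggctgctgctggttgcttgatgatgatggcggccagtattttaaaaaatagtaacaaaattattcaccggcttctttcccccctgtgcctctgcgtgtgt
Pbx2: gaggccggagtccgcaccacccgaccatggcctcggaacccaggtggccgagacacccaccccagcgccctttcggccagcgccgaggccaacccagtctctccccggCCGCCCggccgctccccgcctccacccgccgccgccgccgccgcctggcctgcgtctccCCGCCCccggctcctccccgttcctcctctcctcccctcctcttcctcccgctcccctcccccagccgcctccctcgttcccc
The table held an entry for 4 of the 6 members. The Pbx2 stretch was 77.6% G and C with 27 CpG dinucleotides, the Meis1 stretch 59.6% with 13, and the Meis2 stretch 47.6% with 7, where the median over all 32851 promoters was 52.4%. The Meis3 stretch, at chr7:16175145-16175394 on the plus strand, was 63.6% G and C with 12 CpG dinucleotides. Meis1 and Meis3 both had the ETS letters, 6 and 12 bases before the start, which 6.91% of all promoters held. The CCAAT letters lay 50 bases before the start in Meis1 and 206 in Meis2, and 33.9% of all promoters had them. Pbx2 had the GC box at 137 and 78 bases before the start, with 32.7% of all promoters holding it at least once. The letters TGACAG, which MEIS and PREP proteins bind, were in 0 of the 4 stretches and in 15.9% of all promoters. The letters TGATTNAT, bound by PBX with HOX, were in 0 of the 4 and in 2.83% of all. Both searches covered both strands of 250 bases, and a missing match says only that these letters are not in the window.

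Values are log2 units, so a difference of 1 is a doubling. For each gene the probe set with the highest mean over the 6 arrays was tested, and the others are given beside it. Differences carry the standard error (SE) of limma, a linear model fitted to all genes, and a gene was called where limma's Benjamini-Hochberg adjusted p over all genes was below 0.05. Readings of Xist on arrays high in Y-linked genes reached 5.84, so a group mean at or under 5.84 may be background alone. Where the dimmer group was that low, a called fold is a lower bound, computed against the higher of 5.84 and each array's own reading. This guide was chosen after the values had been seen.

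The arrays differed in ways that the groups do not explain. Xist was high on both MN1 arrays and on Gr1Mac array 1, whereas Y-linked genes were high on the other 3 arrays. Sex thus separated MN1 from MN1VP16 completely, and a difference between those groups cannot be told apart from one of sex except through the Gr1Mac arrays. Among 30 control features with a mean of at least 8 log2 units, a single principal component carried 86.9% of the variance and set both MN1 arrays and MN1VP16 array 1 against MN1VP16 array 2 and both Gr1Mac arrays. The side with the MN1 arrays was higher by more than 1 log2 unit for 15 of the 30. For AFFX-BioB-5_at the gap ran the other way (-1.18). MN1 and Gr1Mac thus never shared a side, and the split and the difference between MN1 and Gr1Mac can be told apart only through MN1VP16, which had 1 array on each side. Over all features the arrays had medians from 5.36 to 5.43. The medians over the 18193 genes, each by its tested probe set, differed more. Centring each array on that gene median moved all differences of MN1 from Gr1Mac by -0.26 and of MN1VP16 from Gr1Mac by -0.21.

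The cell mixtures differed as well. The 9 measured stem and progenitor markers averaged 9.29 and 9.70 in MN1, then 8.69 and 8.28 in MN1VP16, then 6.11 and 6.06 in Gr1Mac, where Cd34, Gata2, Procr, Angpt1 and Mecom lay at or under the guide. The same order of groups was found for 6 erythroid markers (9.97 and 10.45, then 8.49 and 7.41, then 6.34 and 6.31) and for 7 mast cell and basophil markers (9.62 and 10.20, then 9.19 and 8.31, then 6.53 and 6.20). Megakaryocyte and platelet markers (8 genes) averaged at most 8.06 in MN1, 8.10 and 6.42 on MN1VP16 arrays 1 and 2, and 5.67 and 5.56 in Gr1Mac. The 9 neutrophil markers were above the guide in every group, and averaged 12.85 and 12.06 in MN1, then 13.32 and 13.04 in MN1VP16, then 13.97 and 14.07 in Gr1Mac. The 6 measured monocyte and macrophage markers averaged 8.09 and 7.91 in MN1, then 11.31 and 10.95 in MN1VP16, then 11.38 and 10.72 in Gr1Mac. The 7 measured B cell markers averaged 5.48 and 5.48 in MN1, then 6.44 and 6.70 in MN1VP16, then 5.70 and 5.22 in Gr1Mac. Of these, Pax5, Ebf1 and Ms4a1 were at or under the guide in every group. The 6 measured T and NK cell markers averaged 5.63 and 5.43, then 5.71 and 6.16, then 6.24 and 6.23. Of 8 stroma and endothelium markers, 6 were at or under the guide in every group.

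Meis2 had the widest span of group means of the 6 genes. Meis2 encodes a MEIS protein that binds DNA with PBX partners, and its probe set 1457632_s_at read 10.51 and 10.74 in MN1, then 7.92 and 4.53 in MN1VP16, then 3.21 and 3.53 in Gr1Mac. The groups did not overlap, with MN1 highest and Gr1Mac lowest, and both Gr1Mac arrays and MN1VP16 array 2 lay under the guide. Meis2 was higher in MN1 than in Gr1Mac by 7.25 ± 0.99 (SE, n = 2 arrays per group; limma adjusted p = 0.00424), at least 27.6-fold. The difference between MN1VP16 and Gr1Mac was 2.85 with a 95% interval from 0.42 to 5.28, and it did not pass the adjusted threshold (limma adjusted p = 0.155). Between MN1VP16 and MN1 it was -4.40 with an interval from -6.83 to -1.97 (limma adjusted p = 0.0692).

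The other 3 Meis2 probe sets had the same order of group means. Probe set 1417129_a_at read 9.95 and 9.96 in MN1, then 6.86 and 4.15 in MN1VP16, then 3.69 and 3.86 in Gr1Mac. For 1440091_at the values were 8.87 and 9.88 in MN1, then 6.23 and 4.16 in MN1VP16, then 3.96 and 4.21 in Gr1Mac, so that MN1VP16 array 2 lay within the Gr1Mac range. For 1447861_x_at they were 8.73 and 9.17, then 6.70 and 4.65, then 3.77 and 4.48. All 4 were thus lower on MN1VP16 array 2 than on array 1. All 4 were called higher in MN1 than in Gr1Mac, by 4.83 to 7.25, at least 8.66-fold to at least 27.6-fold. In the fit over probe sets, 1440091_at and 1417129_a_at were also called lower in MN1VP16 than in MN1, by at least 10.2-fold and at least 12.2-fold (limma adjusted p = 0.0367 and 0.0435), while 1447861_x_at (0.0542) and 1457632_s_at (0.0705) were not. With the sex pattern or the replicate number as a term, or with only these groups in the fit, limma called 0 of the member probe sets in this comparison. Meis2 kept its call in MN1 against Gr1Mac under all 17 alternative settings, from 3.86 to 7.41. The value of 3.86 came with the control-feature side as a term in the model (limma adjusted p = 0.0175), and since MN1 and Gr1Mac share no side, it is the sum of the gaps that each had to the MN1VP16 array on its own side, the second of them between readings under the guide.

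Meis1, the best known MEIS gene in leukaemia, was also called higher in MN1. Its probe set 1450992_a_at read 7.96 and 8.19 in MN1, then 8.44 and 6.25 in MN1VP16, then 4.89 and 5.44 in Gr1Mac. The MN1 and MN1VP16 ranges overlapped, and both lay above Gr1Mac, which was under the guide. The difference between MN1 and Gr1Mac was 2.91 ± 0.67 (SE, n = 2 arrays per group; limma adjusted p = 0.0217), at least 4.73-fold. MN1VP16 differed from Gr1Mac by 2.18, with an interval from 0.55 to 3.81 (limma adjusted p = 0.117), and from MN1 by -0.73, with an interval from -2.36 to 0.90 (limma adjusted p = 0.598).

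The Meis1 call rested on 1 probe set and on fewer settings than that of Meis2. Probe set 1443260_at read 5.79 and 5.78 in MN1, then 6.77 and 5.03 in MN1VP16, then 4.88 and 4.57 in Gr1Mac, and its MN1 and Gr1Mac means were both under the guide (difference 1.06, limma adjusted p = 0.199). Probe set 1459423_at stayed at or under 5.13, below the guide, on every array. Both MN1 readings of 1443260_at lay above both of Gr1Mac, and MN1VP16 array 1 lay above the guide. As means under the guide may be background alone, neither probe set settles whether Meis1 differed between MN1 and Gr1Mac. The call of Meis1 as a gene held under 9 of 17 alternatives, or 7 of 14 where settings that gave the same fit are counted once. It was lost with the mean of all Meis1 probe sets (1.33, limma adjusted p = 0.0795). It was also lost without marked probe sets, whose names end in _x_at, _s_at or _a_at (1.06, 0.203). The mean joins 1450992_a_at with the dim probe sets 1443260_at and 1459423_at, and the other setting turns to 1443260_at. Neither setting tests 1450992_a_at alone. The call was lost too with the sex pattern as a term (3.19, the same fit as without Gr1Mac array 2). Leaving out any 1 MN1 or Gr1Mac array also ended it (2.63 to 3.19). With the control-feature side as a term the difference was 0.73 (limma adjusted p = 0.385). On average the stem and progenitor, erythroid, mast cell and megakaryocyte markers above moved the same way as Meis1 and Meis2. In MN1 against Gr1Mac 6 of 9, 4 of 6, 4 of 7 and 4 of 8 were called higher, in that order, and 0 lower. Of all genes 17.3% were called higher and 12.0% lower. Not every marker followed, as the erythroid gene Alas2 and the mast cell gene Hdc had their highest array in Gr1Mac. The part of these markers in the result was not tested.

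**Figure D1:**
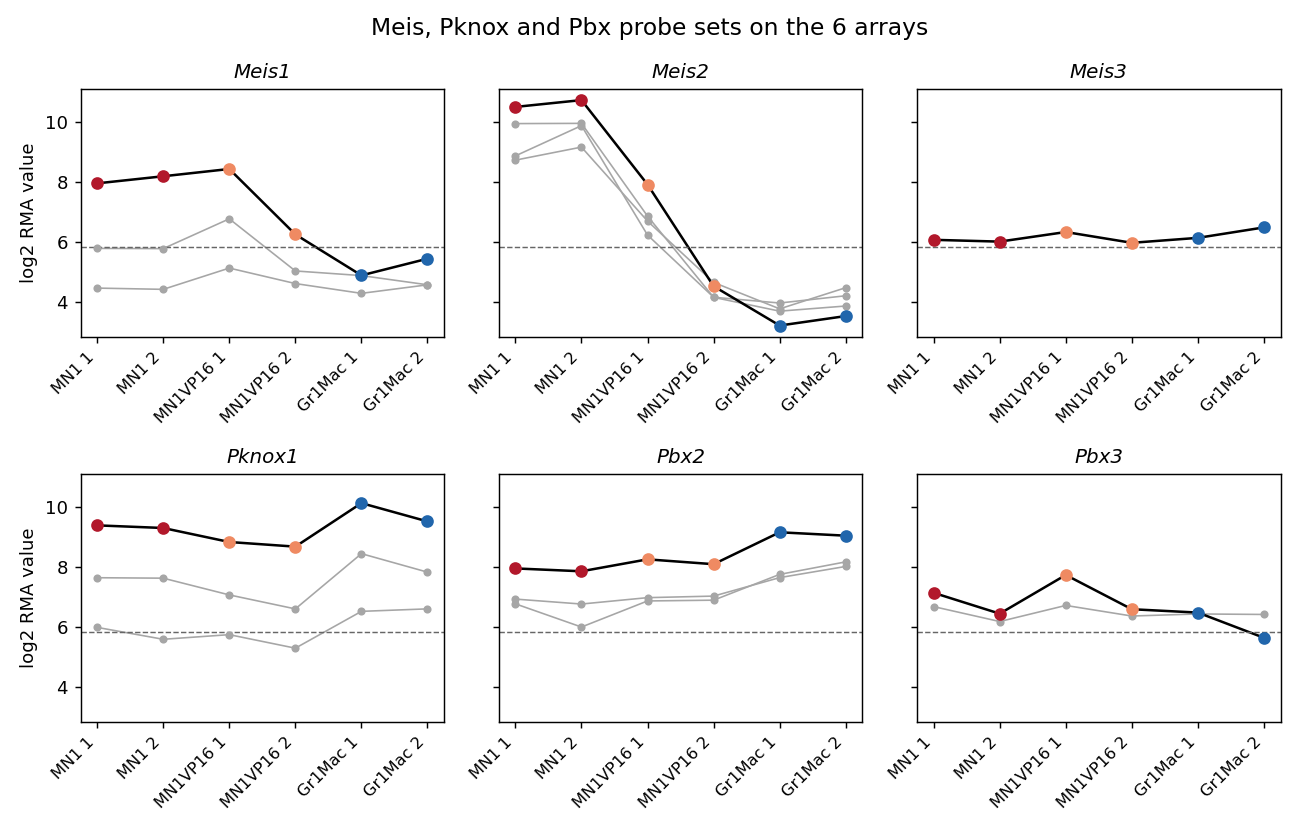
Log2 expression of every probe set of the 6 genes (vertical axis, log2 units) on each of the 6 arrays (horizontal axis), with the tested probe set in black, the others in grey and the guide of 5.84 as a dashed line. On its tested probe set Meis2 read at least 10.51 in MN1 and at most 3.53 in Gr1Mac, Meis1 and Meis2 were lower on MN1VP16 array 2 than on array 1, and Pbx2 was highest on the Gr1Mac arrays.

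Meis3, the third MEIS gene, had the narrowest span of group means, 0.27. Its only probe set, 1423984_a_at, read 6.07 and 6.01 in MN1, then 6.33 and 5.97 in MN1VP16, then 6.14 and 6.49 in Gr1Mac. The MN1VP16 range overlapped both others, and all readings lay between 5.97 and 6.49, not far above the guide. The difference between MN1 and Gr1Mac was -0.27, with an interval from -0.77 to 0.23, so an increase of more than 0.23 lay outside it (limma adjusted p = 0.389). Limma called Meis3 in neither of the other comparisons, with -0.16 (interval from -0.66 to 0.34) for MN1VP16 against Gr1Mac and 0.11 (interval from -0.39 to 0.61) for MN1VP16 against MN1.

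Pknox1 encodes PREP1, which competes with MEIS proteins for PBX partners. Its probe set 1437470_at read 9.39 and 9.30 in MN1, then 8.83 and 8.68 in MN1VP16, then 10.13 and 9.52 in Gr1Mac. The groups did not overlap, and here Gr1Mac was highest and MN1VP16 lowest. MN1 differed from Gr1Mac by -0.48 with an interval from -1.05 to 0.09 (limma adjusted p = 0.184), and MN1VP16 by -1.07 with an interval from -1.64 to -0.50 (limma adjusted p = 0.0556). MN1VP16 and MN1 differed by -0.59 (limma adjusted p = 0.208).

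The 2 dimmer Pknox1 probe sets had the same direction and fell on the other side of the threshold in places. Probe set 1450172_at read 7.64 and 7.62 in MN1, then 7.07 and 6.60 in MN1VP16, then 8.44 and 7.82 in Gr1Mac, and it was called 2.47-fold lower in MN1VP16 than in Gr1Mac (limma adjusted p = 0.0462). Probe set 1421233_at read 5.98 and 5.58, then 5.74 and 5.29, then 6.52 and 6.60, and it was called at least 1.57-fold lower in MN1 than in Gr1Mac (limma adjusted p = 0.0483). All 3 probe sets of Pknox1 thus had their highest array in Gr1Mac and their lowest in MN1VP16. Pknox1 as a gene was called lower in MN1 than in Gr1Mac under 3 of 17 alternatives, which were median centring (-0.74, limma adjusted p = 0.0409) and, as the same fit, the sex pattern as a term and leaving out Gr1Mac array 2 (-0.79, 0.0376); without Gr1Mac array 1 the difference was -0.18 (0.474). It was called lower in MN1VP16 than in Gr1Mac under 4 of 17 alternatives, among them the mean of its probe sets (limma adjusted p = 0.0372) and arrays centred on their medians (0.0261).

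Pbx2, a broadly expressed PBX gene, went the opposite way from Meis1 and Meis2. Its probe set 1418893_at read 7.95 and 7.85 in MN1, then 8.25 and 8.09 in MN1VP16, then 9.16 and 9.04 in Gr1Mac. The groups did not overlap, and both arrays of each group lay close together. Pbx2 was lower in MN1 than in Gr1Mac by 2.29-fold, with an interval from 1.76 to 2.99 (limma adjusted p = 0.00374, n = 2 arrays per group), and lower in MN1VP16 by 1.90-fold, with an interval from 1.46 to 2.48 (limma adjusted p = 0.0324). MN1VP16 and MN1 differed by 0.27, with an interval from -0.11 to 0.65 (limma adjusted p = 0.387). Both comparisons with Gr1Mac share its arrays. On average neutrophil markers were also lowest in MN1 and highest in Gr1Mac (6 of 9 called lower in MN1, median -0.95). Monocyte and macrophage markers were lower in MN1 (5 of 6 called, median -2.95), where 12.0% of all genes were called lower. In MN1VP16 limma called 0 of these 6, also unadjusted (median -0.01), where 2.11% of all genes were called lower. The part of both marker lists in the Pbx2 result was not tested.

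The other Pbx2 probe sets were called lower in MN1 as well. Probe set 1418894_s_at read 6.77 and 5.99 in MN1, then 6.86 and 6.89 in MN1VP16, then 7.75 and 8.17 in Gr1Mac, and differed between MN1 and Gr1Mac by -1.58 (limma adjusted p = 0.0102). Probe set 1449261_at read 6.93 and 6.76, then 6.97 and 7.03, then 7.64 and 8.01, and differed by -0.99 (limma adjusted p = 0.0111). In both, Gr1Mac was above the other groups without overlap, but limma did not call them between MN1VP16 and Gr1Mac (adjusted p = 0.087 and 0.0585). The call of Pbx2 in MN1 held under 16 of 17 alternatives (13 of 14 distinct fits), and was lost with the control-feature side as a term (-1.36, limma adjusted p = 0.0548). The call in MN1VP16 was lost under 11 of 17 (7 of 13 distinct fits), with differences from -1.14 to -0.85 over all 17. Leaving out any 1 of the 6 arrays ended it, with values between -1.01 and -0.85 (limma adjusted p up to 0.122). With Gr1Mac array 1 alone, the only Gr1Mac array high in Xist like MN1, the differences of MN1 were 7.41 for Meis2, 3.19 for Meis1 and -1.25 for Pbx2.

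Pbx3, a PBX gene that binds beside Meis1 and Hoxa9 in leukaemia cells, varied widely within groups. Its probe set 1447640_s_at read 7.13 and 6.44 in MN1, then 7.73 and 6.59 in MN1VP16, then 6.48 and 5.63 in Gr1Mac. MN1 overlapped with both other groups. The difference between MN1 and Gr1Mac was 0.73, with an interval from -0.43 to 1.90 (limma adjusted p = 0.317), and that between MN1VP16 and Gr1Mac was 1.10, with an interval from -0.06 to 2.27 (limma adjusted p = 0.234). The second probe set, 1421193_a_at, read 6.67 and 6.18 in MN1, then 6.71 and 6.36 in MN1VP16, then 6.43 and 6.41 in Gr1Mac, a difference of 0.00 between MN1 and Gr1Mac.

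**Figure D2:**
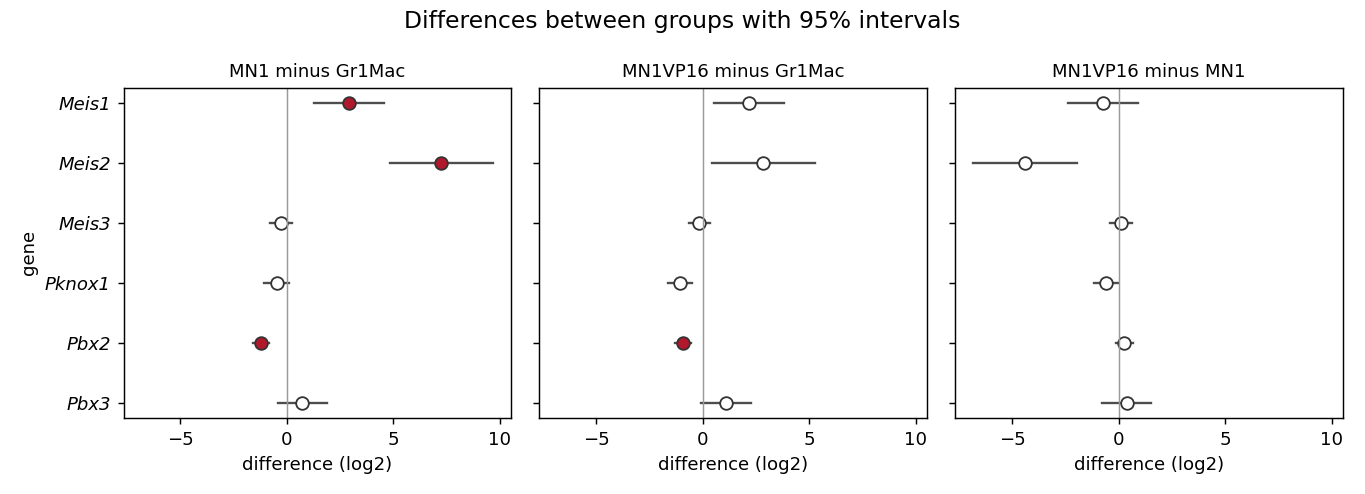
Difference in log2 expression (horizontal axis, log2 units) with its 95% interval for the 6 genes in the 3 comparisons, with filled points for genes called by limma at an adjusted p under 0.05. In MN1 minus Gr1Mac, Meis2 (7.25) and Meis1 (2.91) lay above 0 and Pbx2 (-1.20) below it; Pbx2 was also called in MN1VP16 minus Gr1Mac, and 0 genes were called in MN1VP16 minus MN1.

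Over the 6 genes, limma called 2 higher and 1 lower in MN1 than in Gr1Mac, where 17.3% of all genes were called higher and 12.0% lower. That balance depended on the scaling: 3147 genes were called higher and 2187 lower as reported, but 2484 and 4003 with each array centred on its gene median. The median difference was 0.23 for the 6 and -0.06 for all genes. Of their 16 probe sets, 5 were called higher and 4 lower, against 15.0% and 11.6% of all probe sets. Between MN1VP16 and Gr1Mac, 0 were called higher (2 at an unadjusted p under 0.05) and 1 lower (2 unadjusted), where 3.66% of all genes were called higher and 2.11% lower. Here too centring turned the balance, from 666 genes higher and 384 lower to 530 and 946. The median difference was 0.47 against -0.00 for all genes. Among the probe sets 0 were called higher (2 unadjusted) and 2 lower (6 unadjusted), against backgrounds of 3.12% and 2.31%. Between MN1VP16 and MN1, limma called 0 of the 6 in either direction (0 higher and 2 lower unadjusted), against 1.15% of all genes higher and 2.70% lower, with medians of -0.24 and 0.03. All genes here were 209 higher and 492 lower, and 371 and 536 with quantile normalization repeated. Of the probe sets, 0 were called higher and 2 lower, both of Meis2, against 0.913% and 2.34%. With 6 genes these shares are coarse.

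The MN1VP16 arrays differed from each other in Meis1 and Meis2 far more than in most genes. Array 1 exceeded array 2 by 3.39 for Meis2, by 2.18 for Meis1 and by 1.14 for Pbx3, where the median gap of all genes was 0.19. A smaller gap was found in 99.8%, 99.1% and 96.1% of genes, in that order. The gaps of Meis3 (0.36), Pbx2 (0.16) and Pknox1 (0.15) were among those of ordinary genes. On array 1 Meis1 was 0.36 above the MN1 mean, and on array 2 it was 1.09 above the Gr1Mac mean. Meis2 on array 1 differed from the MN1 mean by -2.70, and on array 2 it lay under the guide, as in Gr1Mac. These are the arrays that lay on opposite sides of the control-feature split. Without MN1VP16 array 2, limma called Meis1 (3.27, adjusted p = 0.0167) and Meis2 (4.55, adjusted p = 0.00781) higher in MN1VP16 than in Gr1Mac, and without array 1 it called Meis2 (-6.10, adjusted p = 0.00371) and Meis1 (-1.82, adjusted p = 0.0499) lower in MN1VP16 than in MN1. These fits had 1 MN1VP16 array, which was assumed to vary like the arrays of the other groups. The first 2 values are set against Gr1Mac readings under the guide and the -6.10 against an MN1VP16 reading under it, so they are differences of readings and not sizes of a change.

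Partners and reported targets of MEIS proteins did not all follow that order of the arrays. Flt3, a receptor gene reported as a Meis1 target, read 11.45 and 11.18 in MN1, then 9.76 and 7.43 in MN1VP16, then 7.23 and 7.32 in Gr1Mac, so that array 1 was higher by 2.34. Trib2, a pseudokinase gene also reported as a Meis1 target, was higher on array 1 by 2.05. Hoxa9, Hoxa10 and Hoxa11 had the opposite order, each higher on array 2 by more than 1. Hoxa9 read 12.38 and 12.71 in MN1, then 9.92 and 11.63 in MN1VP16, then 5.02 and 4.17 in Gr1Mac. Hoxa10 read 9.69 and 10.00, then 5.37 and 8.32, then 3.97 and 4.05, and Hoxa11 read 9.57 and 9.37, then 5.26 and 7.98, then 5.43 and 5.34. On MN1VP16 array 1 Hoxa10 and Hoxa11 were thus under the guide. There Meis1 was as high as in MN1, and Meis2 differed from the MN1 mean by -2.70. On array 2 Hoxa10 and Hoxa11 were well above the guide, while Meis1 read 6.25 and Meis2 was under it. Hoxa9 was above the guide on both arrays.

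A gap of more than 1 log2 unit with array 1 higher was found in 577 of 18193 genes (3.17%), and with array 2 higher in 327 (1.80%). Of the 6 TALE genes 3 had array 1 higher and 0 array 2. Of 33 measured Hox genes 0 had array 1 higher and 3 array 2, and of 24 reported Meis1 or Hoxa9 targets 7 and 2. Among the markers, 6 of 8 megakaryocyte, 3 of 6 erythroid, 3 of 7 mast cell, 3 of 9 stem and progenitor, 2 of 6 monocyte and macrophage and 1 of 9 neutrophil genes had array 1 higher by more than 1. In the B cell, T and NK cell and stroma and endothelium lists, array 1 was higher by more than 1 in 0 genes. Array 2 was higher by more than 1 in 1 mast cell, 1 monocyte and macrophage, 1 T and NK cell and 1 stroma and endothelium gene. Their part in the Meis1 and Meis2 gaps was not tested.

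**Figure D3:**
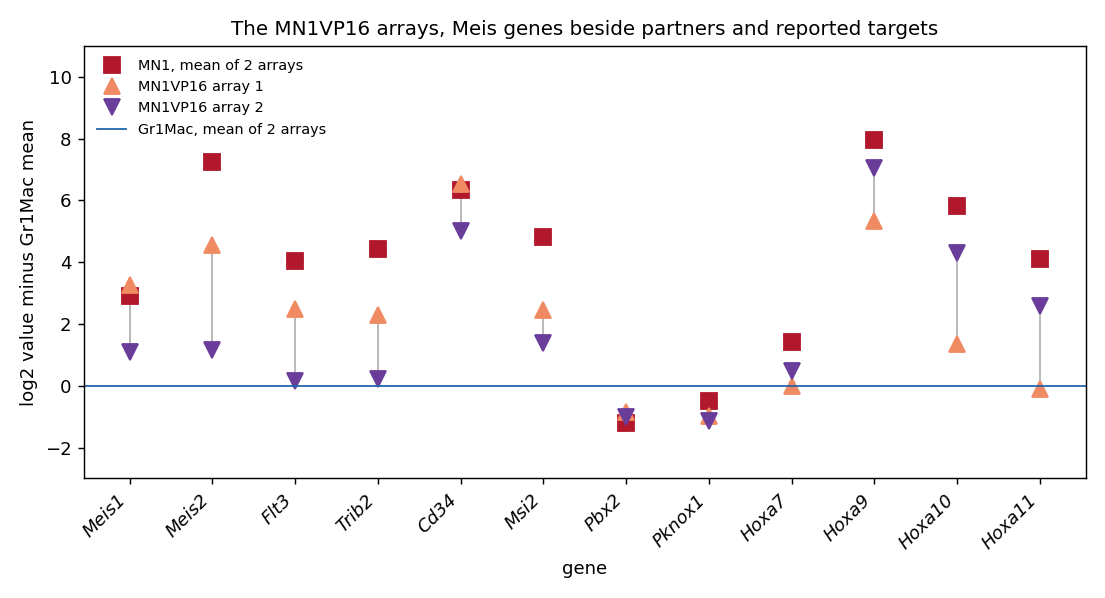
Log2 difference from the Gr1Mac mean (vertical axis, log2 units) for 12 genes (horizontal axis), with 1 point each for the MN1 mean, MN1VP16 array 1 and MN1VP16 array 2; this choice of genes was made with the values in view. Meis1, Meis2 and Flt3 were higher on MN1VP16 array 1 than on array 2, and Hoxa9, Hoxa10 and Hoxa11 were higher on array 2.

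Other genes of the pathway were counted from lists chosen with results of these data known. HOX proteins are the partners that PBX and MEIS join on DNA, and 33 of 39 listed Hox genes were measured. In MN1 against Gr1Mac 5 were called higher (Hoxa5, Hoxa7, Hoxa9, Hoxa10 and Hoxa11) and 3 lower (Hoxb1, Hoxb4 and Hoxd9), shares near the 17.3% and 12.0% of all genes, with a median of -0.15 against -0.06 for all genes. Hoxa9 was at least 105-fold higher (limma adjusted p = 0.00117), Hoxa10 at least 16.1-fold, Hoxa11 at least 12.4-fold, and Hoxa7 2.66-fold. Hoxb4 was at least 2.84-fold lower (limma adjusted p = 0.00323). Hoxb1 lay under the guide in both groups, with means of 3.25 in MN1 and 4.41 in Gr1Mac. The Hoxd9 mean was under it in MN1 (5.35) and not far above it in Gr1Mac (6.20). Between MN1VP16 and Gr1Mac 1 was called higher (Hoxa9, at least 30.7-fold) and 1 lower (Hoxb4), where 3.66% of all genes were called higher and 2.11% lower. Between MN1VP16 and MN1 limma called 0 Hox genes (1 higher and 5 lower at an unadjusted p under 0.05). Of all genes 1.15% were called higher and 2.70% lower there.

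All 24 genes reported as targets of Meis1 or Hoxa9 were measured, a list that overlaps the stem and progenitor markers. In MN1 against Gr1Mac 12 were called higher and 3 lower, against 17.3% and 12.0% of all genes, with a median of 1.13 against -0.06. Cd34, a surface marker of progenitors, was at least 31.8-fold higher. The RNA-binding protein gene Msi2 was at least 21.3-fold higher, Myc, a growth regulator, 21.0-fold, and Flt3 16.4-fold. Trib2 was at least 10.1-fold higher. Id2, an inhibitor of helix-loop-helix factors, was 6.29-fold lower, the kinase gene Syk 3.12-fold and the cyclin gene Ccnd3 2.77-fold. Between MN1VP16 and Gr1Mac, 3.66% of all genes were called higher and 2.11% lower. Of the 24 targets 8 were called higher (Bcl2, Cd34, Hlf, Lmo2, Msi2, Myb, Myc and Sox4) and 0 lower, with a median of 0.98. Flt3 and Trib2, which had wide gaps between the MN1VP16 arrays, were not among them. Between MN1VP16 and MN1 1 was called higher (Id2) and 4 lower (Hlf, Igf1, Msi2 and Myc), against 1.15% and 2.70% of all genes. Msi2 was 7.51-fold lower (limma adjusted p = 0.0235). With the sex pattern as a term, limma called 0 of all genes in this comparison.

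Of 12 further TALE genes 11 were measured, and 2 were called higher and 1 lower in MN1 than in Gr1Mac, near the shares of all genes (17.3% and 12.0%), with a median of -0.18. Tgif2, which encodes a TALE repressor, was 2.59-fold higher (limma adjusted p = 0.00425) and was called 2.32-fold lower in MN1VP16 than in MN1 (limma adjusted p = 0.034). Irx3 and Irx6, the other called genes, were at or under the guide in both groups. A further list held 14 genes, cofactors of PBX and MEIS proteins and other genes linked to them, and 12 were measured. Of these 2 were called higher and 4 lower, where 17.3% and 12.0% of all genes were, with a median of -0.15. Pbxip1, whose protein binds PBX and blocks its binding to DNA, was 3.84-fold lower in MN1 (limma adjusted p = 0.00501). The pseudokinase gene Trib1 was at least 4.66-fold lower, the acetyltransferase gene Crebbp 1.78-fold and the coactivator gene Crtc2 1.72-fold. Psip1, whose protein tethers menin and MLL to chromatin, was 1.73-fold higher, and the deacetylase gene Hdac3 1.55-fold. In MN1VP16 against Gr1Mac limma called 0 of these 12 genes (0 higher and 3 lower unadjusted), against 3.66% of all genes higher and 2.11% lower. In MN1VP16 against MN1 limma called Psip1 lower, where 2.70% of all genes were called lower.

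For each of the 5 members whose group means spanned at least 1 log2 unit, the 3 genes with the most similar values over the 6 arrays were taken from 4774 genes that also spanned this much. The correlations are descriptions over 6 arrays that share their groups, sex patterns and control-feature sides. Nearest to Meis2 were Nckap1, D930003E18Rik and Rab38 (Pearson r = 0.999 each), and nearest to Meis1 were Zc3h6 (0.993), Rbbp6 (0.990) and Unc13c (0.988). Pbx2 was closest to Med31 (0.999), Cd86 (0.997) and Ggt5 (0.996). For Pknox1 they were Tango6 (0.981), Jag1 (0.978) and Stard4 (0.971), and for Pbx3 they were 1700066M21Rik (0.957), Btla (0.941) and Mmd (0.935). The lists of Meis1 and Meis2 had 0 genes in common.

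**Figure D4:**
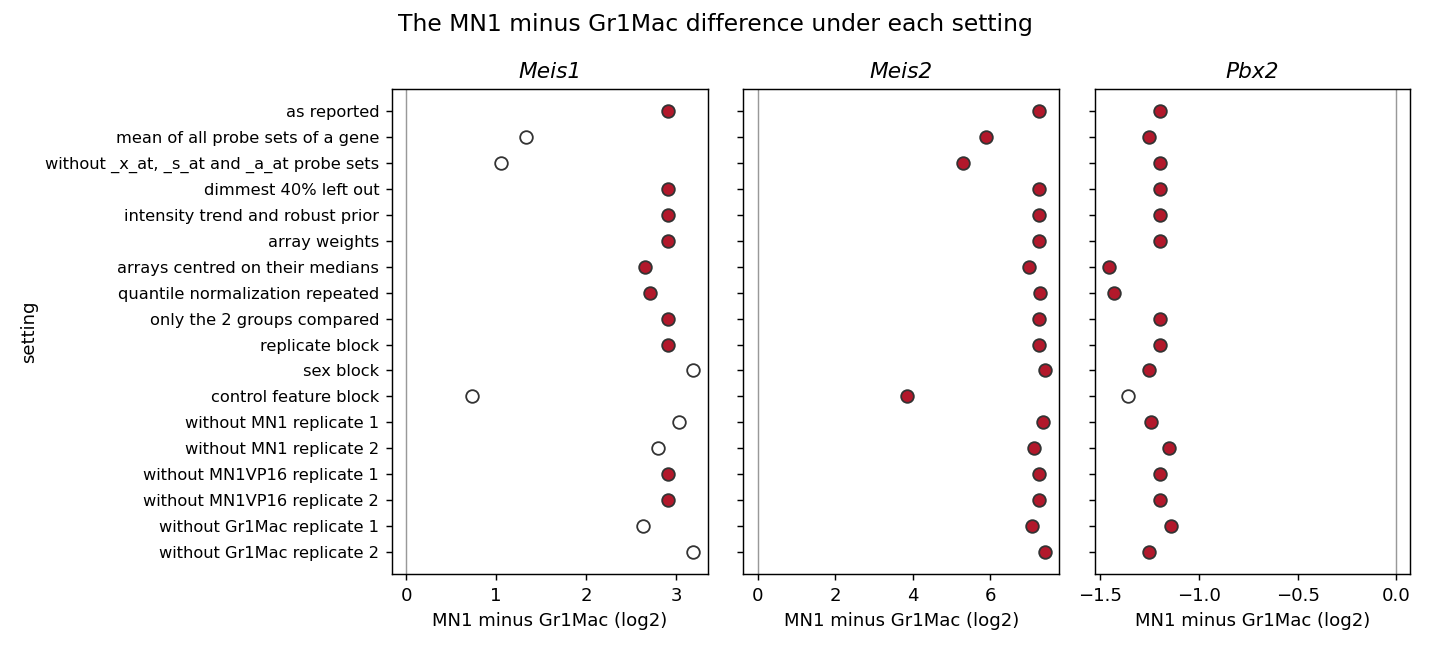
Difference between MN1 and Gr1Mac (horizontal axis, log2 units) for Meis1, Meis2 and Pbx2 as reported and under 17 alternative settings (vertical axis), with filled points where limma called the gene at an adjusted p under 0.05. Meis2 was called in all 17, Pbx2 in 16 and Meis1 in 9, and the control-feature side as a term gave the lowest Meis1 and Meis2 values, 0.73 and 3.86.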

How the data were processed

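The authors deposited log2 values for each probe set on 6 arrays, and per the submitters' processing notes the method was RMA. Its version and a genome build are not given in the sources used here. Quantile normalization within RMA hides any change in the total RNA of a cell, and the method compresses differences of dim genes. No detection calls or scanner intensities were used here. GEO's platform annotation named 1 gene for 34945 of 45101 features, several for 932 and none for 9160, and only the first were used. A RefSeq table matched 34741 by gene number and changed 0 symbols.

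The functions lmFit and eBayes of limma 3.58.1 (R 4.3.3) were run on all 6 arrays with a term for group and no other, leaving 3 residual degrees of freedom and 3.03 from the prior. They were fitted to 18193 genes, each by its brightest probe set (9010 genes had several), and to all 34945 probe sets. The code was tested on simulated data. With 2 arrays against 2, an exact two-sided permutation test cannot fall below p = 0.333, so none was made.

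The text names every member with every probe set, for each member spanning at least 1 log2 unit the 3 genes most like it, and in each pathway list up to 4 called genes per direction with the largest difference between MN1 and Gr1Mac, plus Hoxa7, Hoxa9, Hoxa10, Flt3 and Trib2. Hoxa11, Irx genes and genes given in parentheses complete small counts. Members and lists were chosen with earlier results of these data known. The alternatives were another choice of probe sets, a filter on dim genes, other normalizations and variance models, only 2 groups in the fit, blocks for replicate number, sex pattern and control-feature side, and leaving out each array.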

Additional observations from a re-analysis of the deposited data

How the results depend on the processing

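Counts are given as reported and then as changed. Between MN1 and Gr1Mac, 5334 genes were called, and 2418 to 5129 without 1 array. With the control-feature side as a term 1486 genes, 1 of the 6 members (Meis2) and 4 member probe sets were called, in place of 3 and 9. Without marked probe sets, whose names end in _x_at, _s_at or _a_at, 4 member probe sets were called. Between MN1VP16 and Gr1Mac, 1050 genes, 1 member and 2 member probe sets were called. Genes numbered 449 with array weights, 347 with only the 2 groups in the fit, 441 with the control-feature side and 49 to 1243 without 1 array. Members numbered 2 with the mean of probe sets, with the dimmest 40% left out, with median centring and with repeated quantile normalization, and 0 with an intensity trend and robust prior, with array weights, with 2 groups, with the sex pattern and with the control-feature side. Member probe sets numbered 4 with the dim filter, 5 with centring, 4 with quantile normalization, 1 with the trend and with the sex pattern, and 0 with array weights, 2 groups or the control-feature side. Without 1 array it was 0 to 2 members and 0 to 5 probe sets. Between MN1VP16 and MN1, 701 genes, 0 members and 2 member probe sets were called. Genes numbered 1573 with array weights, 454 with 2 groups, 0 with the sex pattern, 203 with the control-feature side and 26 to 498 without 1 array. Meis2 was the 1 member called without marked probe sets, with the dim filter, with array weights and with the control-feature side. Member probe sets numbered 1 without marked probe sets, 4 with the dim filter and with array weights, and 0 with 2 groups and with the sex pattern. Without 1 array it was 0 to 2 members and 0 to 4 probe sets. Causes of these changes were not tested. A fit with fewer arrays or more terms has fewer degrees of freedom, and its part was not tested either.

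Directions turned only for differences that were not called. They were Pbx3 in MN1 minus Gr1Mac with the control-feature side (-0.41), Meis1 in MN1VP16 minus MN1 without marked probe sets (0.12) and with the control-feature side (0.36), and, with the sex pattern, Meis3 (-0.24) and Pknox1 (0.022) in MN1VP16 minus MN1. Without 1 array, Meis3 in MN1VP16 minus Gr1Mac ran from -0.34 to 0.021, and in MN1VP16 minus MN1 Meis1 ran from -1.82 to 0.36, Meis3 from -0.070 to 0.29 and Pbx3 from -0.20 to 0.94.

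Replicate numbers did not pair the arrays: deviations from the group means of same-numbered arrays correlated at -0.05, 0.08 and -0.05 for the 3 pairs of groups. With the replicate block, 4 members were called between MN1 and Gr1Mac, with Pbx3 added (0.73, limma adjusted p = 0.0427), and 2 between MN1VP16 and Gr1Mac, with Pbx3 added (1.10, limma adjusted p = 0.0468). In MN1VP16 minus MN1 the block left 0 member probe sets called. With 2 arrays in a group, the number of arrays limits the precision, and a level under 5.84 may be background alone.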
